A study of Mus musculus with 20 samples.

Results

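The interaction of sex and APOE genotype in the hippocampus was the change from hAPOE3 to hAPOE4 in females minus the same change in males, estimated for each autosomal gene. Of 33119 genes in the deposited table, 29726 were placed on an autosome, and 20291 of these had at least 10 counts in at least 5 of the 20 mice and were tested. The transcripts that follow Omt2a, an oocyte gene, over the 5 hAPOE4 males were set apart from the other genes. A follower had a Pearson r of at least 0.9 with Omt2a and a range of at least 2 log2 units over those 5 mice, in log2 CPM, the counts scaled to the size of the library. By this rule 119 tested genes followed Omt2a and 20172 did not, and a further 172 autosomal followers, Omt2a among them, fell below the count filter and were not tested.

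Whole hippocampus was taken from perfused C57BL/6 mice aged 16 months, 5 in each of 4 groups. F.APOE3 (S144 to S148) and F.APOE4 (S164 to S168) were females, and M.APOE3 (S154 to S158) and M.APOE4 (S174 to S178) were males. All mice were homozygous for a targeted replacement in which human APOE3 or APOE4 stands in place of the coding part of mouse Apoe, so no group carried the mouse coding sequence, and the human gene remains under mouse regulatory sequence in every cell type. Each library held between 35778879 and 52520279 estimated counts, and the mitochondrial genome gave 6.47% to 11.4% of them.

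Apolipoprotein E is made mainly by astrocytes and by microglia in the brain, and carries cholesterol and other lipids between cells. The APOE4 allele is the main inherited risk for late Alzheimer's disease, with a stronger effect in women than in men, and the interaction asks gene by gene whether the allele changed expression differently in the sexes. Oocytes store maternal transcripts for meiosis and for the first divisions of the embryo, among them Omt2a, Btg4 and Gdf9, and such transcripts are not known as part of hippocampal cells.

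The promoters of 5 genes that follow Omt2a are shown here, 3 of them below the count filter and so not tested for the interaction, from RefSeq on GRCm38.p6, each as the 250 bases before the start that RefSeq gives (for Omt2a, Omt2b and Btg4 this window lies inside the GENCODE gene model, and for Bhlhe41 it overlaps the model's end). Omt2a is the gene the others follow, Omt2b and Btg4 had the next highest levels in M.APOE4 among the followers below the filter, and E330034G19Rik and Bhlhe41 were followers past the interaction threshold. They lie at chr9:78314049-78314298, - strand (Omt2a), chr9:78327780-78328029, + strand (Omt2b), chr9:51115751-51116000, + strand (Btg4), chr14:24292964-24293213, + strand (E330034G19Rik) and chr6:145865421-145865670, - strand (Bhlhe41). Capitals mark the E-box CANNTG, the core that basic helix-loop-helix factors such as the oocyte factor FIGLA bind, and TAATTA or TAATTG on either strand, the core that the oocyte factor NOBOX binds.
Omt2a: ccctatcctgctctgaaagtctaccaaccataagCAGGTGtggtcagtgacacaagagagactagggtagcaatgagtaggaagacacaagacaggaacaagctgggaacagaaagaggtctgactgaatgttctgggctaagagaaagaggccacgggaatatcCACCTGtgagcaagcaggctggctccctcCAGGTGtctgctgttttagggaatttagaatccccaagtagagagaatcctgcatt
Omt2b: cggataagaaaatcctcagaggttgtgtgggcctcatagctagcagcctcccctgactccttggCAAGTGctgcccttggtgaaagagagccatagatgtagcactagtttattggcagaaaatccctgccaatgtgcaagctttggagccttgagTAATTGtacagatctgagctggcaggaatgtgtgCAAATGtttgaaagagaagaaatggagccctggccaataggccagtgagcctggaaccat
Btg4: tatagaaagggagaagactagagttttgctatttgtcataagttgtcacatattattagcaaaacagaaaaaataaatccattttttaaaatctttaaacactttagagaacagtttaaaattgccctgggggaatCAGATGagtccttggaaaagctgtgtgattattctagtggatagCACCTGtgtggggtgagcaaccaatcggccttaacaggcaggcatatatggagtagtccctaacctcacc
E330034G19Rik: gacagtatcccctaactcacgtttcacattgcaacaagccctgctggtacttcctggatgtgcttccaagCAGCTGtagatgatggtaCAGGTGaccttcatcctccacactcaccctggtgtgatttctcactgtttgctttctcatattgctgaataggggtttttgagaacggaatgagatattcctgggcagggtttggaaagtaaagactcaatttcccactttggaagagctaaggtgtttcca
Bhlhe41: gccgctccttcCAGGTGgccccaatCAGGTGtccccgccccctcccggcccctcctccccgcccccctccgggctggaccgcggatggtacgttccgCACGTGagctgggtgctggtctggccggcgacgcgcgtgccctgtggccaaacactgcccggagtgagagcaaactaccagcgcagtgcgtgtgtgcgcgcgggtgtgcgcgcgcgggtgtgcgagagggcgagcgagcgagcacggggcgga
All 5 promoters held the E-box, which is a palindrome at its outer bases and common, and Omt2b held a TAATTG. Of the 172 followers below the filter 89 had a promoter in the table, and 78 of the 89 (87.6%) held an E-box and 19 (21.3%) a TAATTA or TAATTG, against 65.9% and 11.5% of 25748 autosomal promoters. Of the 119 tested followers 55 had a promoter, with an E-box in 40 (72.7%) and a TAATTA or TAATTG in 12 (21.8%). Of the 23 called followers 10 had a promoter, with an E-box in 8 (80%) and a TAATTA or TAATTG in 0. These shares are a description of the letters in the windows. Gdf9, Dppa3 and A430010J10Rik had no entry.

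The hAPOE4 males fell into S175, S176, S177 and S178 on one side and S174 on the other. Omt2a had 1615, 1165, 1150 and 780 counts in S175 to S178, which is 40.5, 23.4, 27.4 and 19 CPM, 0 counts in S174 and at most 2 counts in each of the 15 mice of the other groups. The deposited data held 62 listed oocyte genes, of which 48, Omt2a itself included, followed Omt2a, against 342 of all 33119 genes. The list was written with earlier results of these data known, so the 48 is a description. In 49 of the 62 each of S175 to S178 was above all 16 other mice, a pattern not counted over all genes. The summed level of the list was 418, 234, 290 and 215 CPM in S175 to S178 and 10.5 to 15.7 CPM in the other 16. These libraries stand apart and carry transcripts that go against their label of hippocampus. The source of the transcripts was not tested. The calls and the list medians that turned on them are also given without them.

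The levels of the oocyte genes were in similar proportion across the 4 mice, which the choice of followers by r over M.APOE4 favoured. Over 33 followers below the filter with at least 50 counts in each of the 4 mice, the median share of a gene's mean over the 4 was 1.45 in S175, 0.809 in S176, 1.03 in S177 and 0.731 in S178, with 5% to 95% ranges of 1.21 to 1.59, 0.701 to 0.906, 0.895 to 1.23 and 0.651 to 0.829, and Omt2a itself stood at 1.47, 0.850, 0.994 and 0.689. Btg4, an adaptor that clears maternal messenger RNA, was measured at 22, 12.3, 15.4 and 11.6 CPM in S175 to S178, at 0.0441 CPM in S174 and at most at 0.164 CPM elsewhere. Dppa3, which protects the maternal genome, was at 19.8, 11.7, 14.5 and 10.5 CPM in the 4 mice and at most at 0.0245 CPM in the other 16. S174 lay with the mice of the other groups for both genes, and S175 was the highest of the 4.

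Not every oocyte marker took part. Zp1 and Zp2, which encode coat proteins of the egg, reached 0.0751 and 0.730 CPM at most in S175 to S178, against up to 0.0629 and 0.557 CPM in the other 16 mice. Zp3, of the same coat, was at 0.376, 0.261, 0.262 and 0.414 CPM in the 4 mice and at most at 0.171 CPM elsewhere. Mos, the kinase that holds the egg in meiosis, was at 2.25, 1.41, 1.57 and 1.24 CPM against at most 0.129 CPM. Granulosa and theca markers, the cells around the oocyte, had 0 of 11 tested genes past the threshold, against 0.168% of all genes tested. Their median difference was -0.09 (0.16 without S175 to S178). Foxl2, the member with the lowest p, was at 0.877 to 1.67 CPM in S175 to S178 and at 0.713 to 1.49 CPM in the other 16 mice. Amh had 78 to 93 counts in the 4 mice and 65 to 136 in the other 16. Hsd3b1, the 1 follower below the filter, was at 0.583 to 0.977 CPM in the 4 mice, with at most 6 counts elsewhere. The mean score of the list was 0.22 in M.APOE4 and -0.15, -0.05 and -0.02 in F.APOE3, F.APOE4 and M.APOE3. The 6 tested sperm genes and the 1 tested gene of the early embryo list, Usp17la, had 0 calls as well. With so few genes called in all, 0 calls in lists of this size say nothing of these cells.
Xist, the X-linked RNA of female cells and not an autosomal member, was at 654 to 988 CPM in females, 3.95 to 6.79 CPM in M.APOE3, 7.50 CPM in S174 and 19.3 to 28.4 CPM in S175 to S178.

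**Figure D1:**
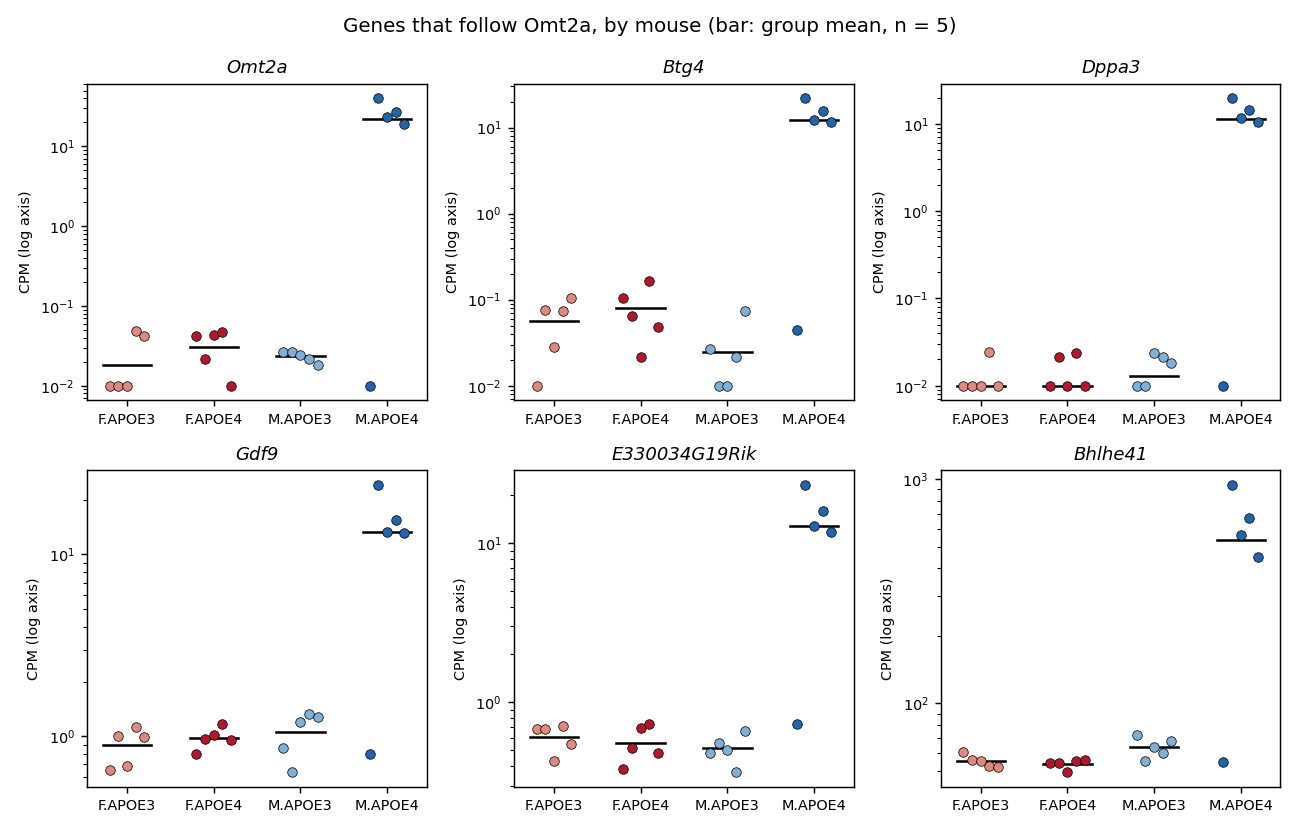
CPM (log axis) of Omt2a, Btg4, Dppa3, Gdf9, E330034G19Rik and Bhlhe41 in each mouse of the 4 groups, with a bar at the group mean and levels under 0.01 CPM drawn at 0.01. S175 to S178 are the 4 high points of M.APOE4 in every panel, and S174 lies with the other groups, as for Omt2a with 19 to 40.5 CPM against 0.

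The interaction was past the threshold (adjusted p under 0.05, edgeR's quasi-likelihood test, Benjamini-Hochberg over 21953 genes of all chromosomes) for 34 autosomal genes, which is 0.168% of the 20291 tested. In all 34 the change was lower in females than in males, and 0 genes were called in the opposite direction. An unadjusted p under 0.05 was reached by 486 genes, 91 with a higher and 395 with a lower change in females. That is fewer than the share of 0.05 of the 20291 that evenly spread p-values would give. Of the 395, 327 did not follow Omt2a, and of the 91 all 91 did not. The DESeq2 Wald test called 55 genes, 1 with a higher and 54 with a lower change in females, and limma called 12, all lower. Of the 34 genes 23 followed Omt2a and 11 did not. The rule that chose the followers read the M.APOE4 values, which enter the difference, so that the 23 of 119 is a description beside the 0.168% and supports nothing.

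The threshold of the rule divided a continuous range. Zar1l (r = 0.9004) was the tested follower with the lowest r and Gm24307 (r = 0.897) lay just outside. Kif23 (range 2.001 log2 units, r = 0.985) was just inside on the range and Uhrf1 (1.996 log2 units, r = 0.992) just outside, with differences of -1.10 and -1.15.

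In the median over the 119 followers the change from hAPOE3 to hAPOE4 was 1.52 log2 units in males and -0.15 in females, and the median difference was -1.62. The choice of followers on M.APOE4 values favours a rise in males and a negative difference, so these medians are a description. Over the 20172 other genes the median difference was 0.004, and over all 20291 it was 0.003, with 5% of genes below -0.65 and 5% above 0.46. The median standard error of a difference was 0.245 log2 units. For 13499 of the 15281 other genes with a mean log2 CPM above 0 (88.3%) the 95% interval of the difference lay within -1 to 1, against 695 of the 4891 genes at or below 0 (14.2%).

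**Figure D2:**
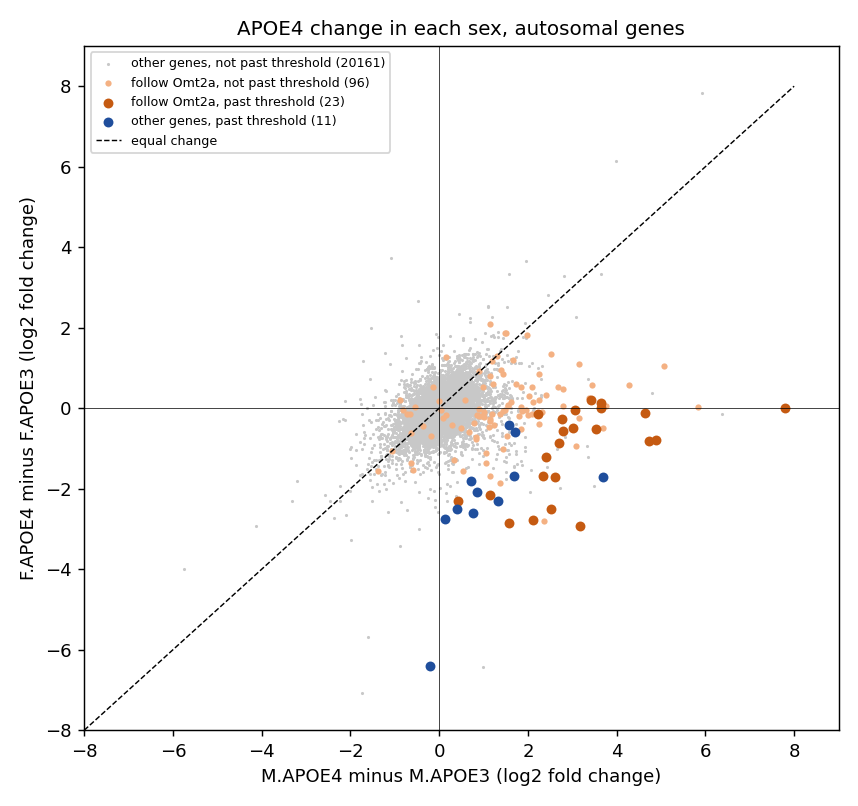
Log2 fold change from APOE3 to APOE4 in males (x axis) and in females (y axis) for the 20291 autosomal genes tested, each point a gene, with the line of equal change. The 34 genes past the interaction threshold all lie below the line. The largest difference between the sexes is -7.80 log2 units, for Gm10800, 1 of the 23 that follow Omt2a.

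Among the called followers, 19 of 23 were called higher in hAPOE4 males and 6 lower in hAPOE4 females (edgeR adjusted p under 0.05 within the sex). Over all 20291 genes tested these counts were 83 and 86. The followers were chosen on M.APOE4 values and the calls on the difference, which favours both counts. Of the 23, 20 had each of S175 to S178 above the other 16 mice. The choice of followers by r over M.APOE4 favours this, and the share over all genes tested was not counted. Bhlhe41, a transcriptional repressor of the circadian clock, was at 944, 566, 671 and 452 CPM in S175 to S178 and at 54.9 CPM in S174. In the other groups it lay at 52.2 to 60.6 CPM (F.APOE3), 49.1 to 56.0 (F.APOE4) and 55.3 to 72.3 (M.APOE3). Only those 4 mice were high, and the female groups overlapped. Its log2 change was 3.07 (standard error 0.40) in males and -0.04 (0.37) in females, a difference of -3.11 (standard error 0.54, adjusted p = 0.0117, edgeR).

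E330034G19Rik, a protein-coding gene, was at 23.3, 12.8, 16.0 and 11.8 CPM in S175 to S178, 0.728 CPM in S174 and 0.363 to 0.726 CPM in the other 15 mice, and its difference was -4.77 (standard error 0.74, edgeR adjusted p = 0.00634). Gdf9, the growth factor by which the oocyte acts on its follicle, was at 24.2, 13.3, 15.5 and 13.1 CPM in the 4 mice and at 0.632 to 1.32 CPM in the other 16, with a difference of -3.51 (standard error 0.69, edgeR adjusted p = 0.0342). The call of Gdf9 held in 1 of 20 fits that each left out a mouse. Both genes were low in every female and overlapped between the female genotypes. Zbed3, which takes part in a complex of maternal proteins in the egg, was at 39.1 to 75.3 CPM in the 4 mice and 7.39 to 11.5 CPM in the other 16, with a difference of -2.37 (standard error 0.42, edgeR adjusted p = 0.0120). Gm10800 was at 13.2 to 30 CPM against at most 0.275 CPM, and C86187 at 12.2 to 23.5 CPM against at most 0.979 CPM, with fitted differences of -7.80 and -5.67, whose size depends on the prior count where a group is near 0. Sall4 (-3.22), a transcription factor of germ cells and stem cells, Cks2 (-3.56), a subunit of cyclin-dependent kinases needed in meiosis, and Nlrp4f (-5.54), of the maternal protein complex, were called as well.

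Part of the called followers also differed between the female genotypes. In 9 of the 23 every F.APOE3 mouse was above every F.APOE4 mouse, as it was in 7 of the 11 other called genes and in 427 of the 20291 genes tested (2.10%). Both female groups enter the difference that chose the called genes, which favours this. The shares are a description, and no excess can be read from them. A430010J10Rik, a noncoding transcript on chromosome 6, was at 51.4, 47.8, 45.8, 16.2 and 57.6 CPM in F.APOE3 (S144 to S148) and at 3.80 to 6.71 CPM in F.APOE4. It was at 6.4 to 23.1 CPM in M.APOE3, 6.29 CPM in S174 and 200, 114, 145.9 and 101 CPM in S175 to S178. Its change was -2.92 (standard error 0.56, adjusted p = 0.0125) in females and 3.17 (0.55, adjusted p = 0.00434) in males, and the difference was -6.09 (standard error 0.79, adjusted p = 0.00241, edgeR).

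Vmn1r13, of the vomeronasal receptor family, had the same shape with 12.1 to 31.5 CPM in F.APOE3, 2.92 to 4.56 in F.APOE4, 4.13 to 12.6 in M.APOE3, 4.10 in S174 and 35.5 to 72.3 in S175 to S178. Its change was -2.49 in females and 2.52 in males, and the difference was -5.02 (standard error 0.67, edgeR adjusted p = 0.00241). A430010J10Rik and Vmn1r13 were the only 2 autosomal genes called in both sexes in opposite directions. Gm43972 (difference -4.89) and Gm29325 (-4.04), both long intergenic noncoding RNAs, were high in F.APOE3 and in S175 to S178 too. In M.APOE3 the mouse S156 was highest for these 4 genes and for 14 of the 34 called genes. For every gene 1 of the 5 mice is highest, and the share over all genes tested was not counted.

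Of the 11 called genes that did not follow Omt2a by the rule, 6 were called lower in hAPOE4 females and 3 higher in hAPOE4 males. These counts need an edgeR adjusted p under 0.05 within the sex, whatever the direction of the other genes. Over all 20291 genes tested 86 were called lower in hAPOE4 females and 83 higher in hAPOE4 males. The changes within the sexes make up the difference that chose the 11, which favours such calls. In all 11 the mean of F.APOE3 was above that of M.APOE3. Both means enter the difference that chose the genes, which favours this, and the share over all genes tested was not counted. Olfr729, Gm4034, Cenpf, Gm43960 and Esco2 had an r of at least 0.9 with Omt2a over M.APOE4 but a range under 2 log2 units, so 6 remained with an r under 0.9. Of these Ccdc50-ps lay just below the threshold (r = 0.892), with 60, 46, 40 and 20 counts in S175 to S178 and 9 in S174.

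Gm26822, a long intergenic noncoding RNA (chr16:10827927-10833507, + strand, GRCm38), had the lowest p of them. It was at 85.0, 40.0, 214, 103 and 119 CPM in F.APOE3 (S144 to S148) and at 15.5 to 23.2 CPM in F.APOE4, 15.4 to 20.3 in M.APOE3 and 17.9 to 31.7 in M.APOE4. Every F.APOE3 mouse was above all 15 others, and the other 3 groups overlapped. Its r with Omt2a over M.APOE4 was -0.82. The change was -2.51 (standard error 0.29, adjusted p = 5.18e-05) in females and 0.39 (0.27, adjusted p = 0.648) in males, and the difference was -2.90 (95% interval -3.72 to -2.08, adjusted p = 0.00241, edgeR).

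The pseudogene Gm43960 was at 9.47, 14.6, 12.7, 8.29 and 36.0 CPM in F.APOE3 and 1.93 to 2.83 CPM in F.APOE4, against 2.99 to 8.48 in M.APOE3 and 2.43 to 7.74 in M.APOE4, and its difference was -2.88 (edgeR adjusted p = 0.0173). The olfactory receptor gene Olfr729 was at 3.50 to 7.04 CPM in F.APOE3 and 0.687 to 1.38 CPM in F.APOE4, with a difference of -2.94 (edgeR adjusted p = 0.00634). The pseudogene Gm4034 (-3.36), the long intergenic noncoding RNA Gm45733 (-6.19) and the noncoding transcript Gm13568 (-2.51) were likewise higher in every F.APOE3 than in every F.APOE4 mouse. Gm13568 never exceeded 0.294 CPM, and Gm45733 never exceeded 1.94 CPM and was at 0 in 4 of the 5 F.APOE4 mice.

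Cenpf, a kinetochore protein of dividing cells, was at 4.86, 3.50, 3.81 and 3.24 CPM in S175 to S178, 1.70 CPM in S174 and 0.859 to 2.08 CPM in the other 15 mice, with a difference of -1.99 (standard error 0.34, edgeR adjusted p = 0.0112). Esco2, which acetylates cohesin in dividing cells, was at 0.998 to 1.5 CPM in those 4 mice and at 0.108 to 0.578 CPM in the other 16 (difference -2.31, edgeR adjusted p = 0.0248). For both genes S175 to S178 were above the other 16 mice. The small nuclear RNA Gm25679 (-5.42), the 7SK RNA Rn7sk (-3.39) and the pseudogene Ccdc50-ps (-3.62) completed the 11. Rn7sk was at 12.7 CPM in the F.APOE3 mouse S146 and at 1.38 to 3.4 CPM in the other 4, and at 1.81 to 7.06 CPM in M.APOE4, so 1 mouse carried much of the F.APOE3 mean of 4.67 CPM.

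**Figure D3:**
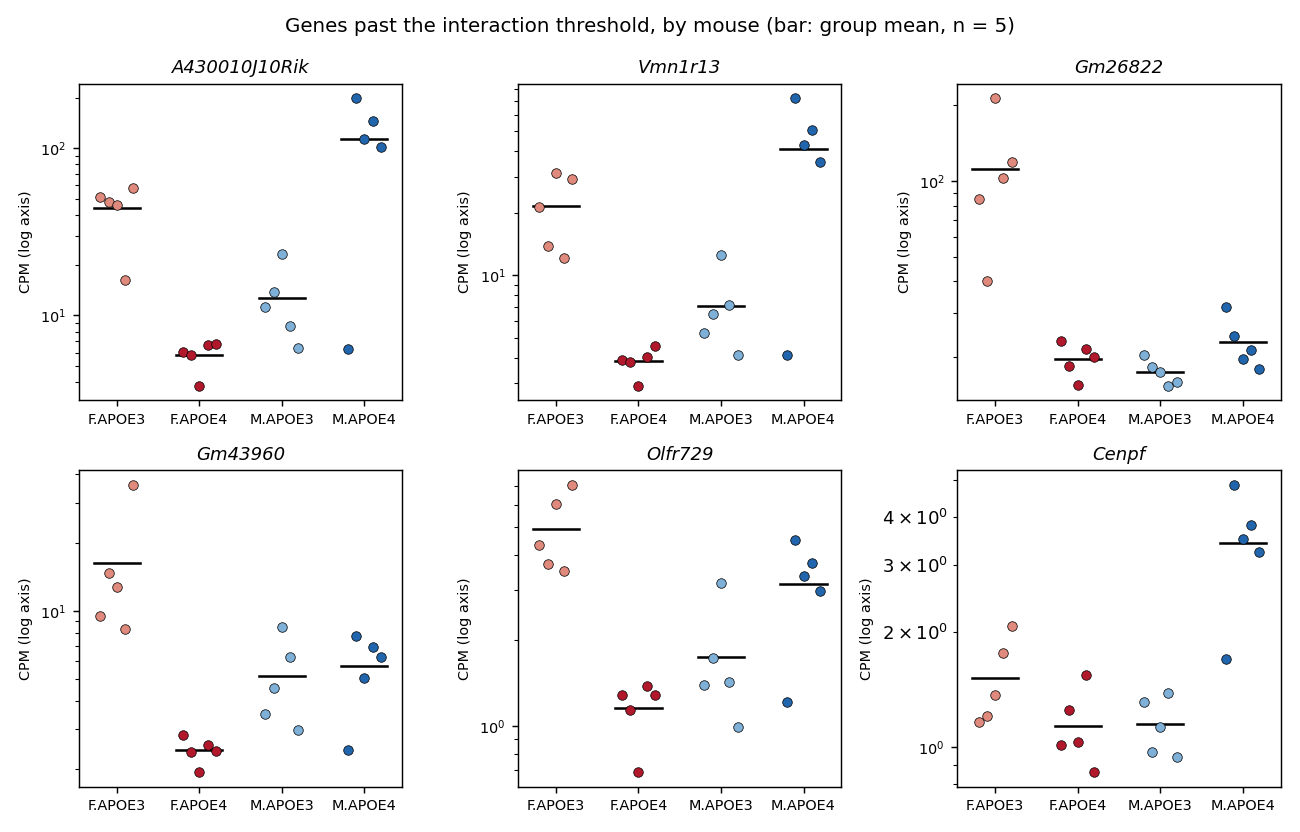
CPM (log axis) of 6 genes past the interaction threshold in each mouse, with a bar at the group mean. A430010J10Rik and Vmn1r13 are high in F.APOE3 and in 4 of the 5 M.APOE4 mice. Gm26822, Gm43960 and Olfr729 have their highest group mean in F.APOE3, and Olfr729 is also higher in S175 to S178 than in S174. Cenpf is high in 4 M.APOE4 mice at 3.24 to 4.86 CPM.

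The called genes differed from the tested genes in kind. Protein-coding genes made up 16 of the 34 (47.1%) against 78.6% of all tested, long intergenic noncoding RNAs 7 (20.6%) against 6.51%, and pseudogenes 7 (20.6%) against 4.68%. For 12 of the 34, more than 10% of the 31-base words of their transcripts also occur in transcripts of other genes, which can make their counts uncertain. The counts were not checked for this, and the share over all genes tested was not computed. All words of Gm25679 were shared with other genes, 80.1% of those of Gm45733 (79.9% with Baz2a), 72.8% of those of Rn7sk, 42.0% of those of Gm10800 and 35.7% of those of Ccdc50-ps (34.7% with Ccdc50), against 4.10% for Gm26822, 3.65% for A430010J10Rik and none for Gdf9, Zbed3 and Sall4. Omt2a shared 42.3% of its words with Omt2b. Gm13568 overlaps Notch1 on the opposite strand, and Gm43972, C86187, Bhlhe41, Cenpf, Sall4, Gm10717 and Gm26870 overlap other genes on the opposite strand, Gm10717 and Gm26870 each other. Whether the counting used strand is not given in the sources used here. The called genes were also low, with a median log2 CPM of 1.29 against 3.30 over all tested.

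Without S175 to S178, which left S174 as the only hAPOE4 male and its spread taken from the other groups, 0 of the 34 genes were called by edgeR. The difference of 32 of the 34 stayed negative, a sign that their selection on values of the remaining mice favours. Gm26822 was then at -3.37 (standard error 0.52, adjusted p = 0.137, edgeR), Gm25679 at -4.77 and Gm45733 at -5.93 (adjusted p = 0.997 each), while E330034G19Rik was at -0.63, Bhlhe41 at 0.18 and Gdf9 at 0.55. With only S174 left out, 84 genes were called, among them all 34, and 33 of the 84 did not follow Omt2a. With the score of the oocyte list as a covariate 1 gene, Gm26822, was called. Leaving out any other single mouse gave 23 to 29 genes.

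**Figure D4:**
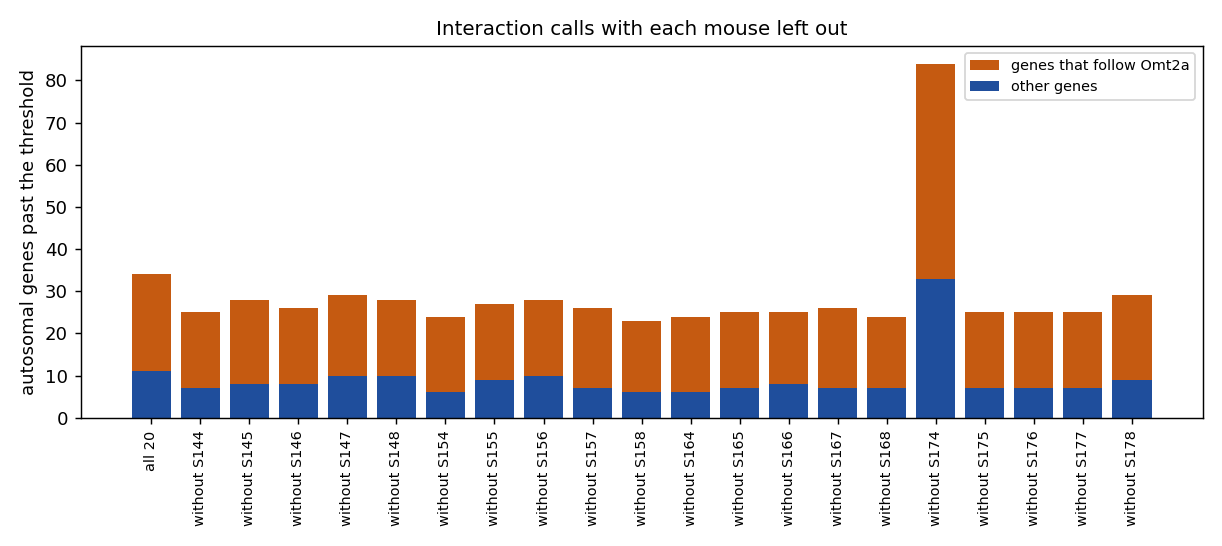
Autosomal genes past the interaction threshold (bar height, a count) with all 20 mice and with each mouse left out, split into genes that follow Omt2a and other genes. The count is 34 with all mice and 84 without S174, the hAPOE4 male in which Omt2a had 0 counts.

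In the direction of a higher change in females, 0 genes were past the threshold. The 8 genes with the lowest p and a mean log2 CPM above 0 were 2810414N06Rik (difference 0.66), C1ra (0.71), Ubtd1 (0.56), Tph2 (0.69), Clcc1 (0.25), Cidea (0.61), 4933406B17Rik (0.74) and Dcdc2a (0.33), and the lowest edgeR adjusted p of the 8 was 0.966. C1ra, a protease of the complement system, had 1.24 as the upper end of its 95% interval, at 2.45 ± 0.528 CPM (SD, n = 5) in F.APOE3, 3.84 ± 1.09 in F.APOE4, 2.66 ± 0.250 in M.APOE3 and 2.54 ± 0.247 in M.APOE4. In the opposite direction, Gm16211 (-1.32, edgeR adjusted p = 0.0546) and Cd300lf (-1.34, edgeR adjusted p = 0.0558), a receptor of myeloid cells, came next after the called genes, and both passed when S174 was left out.

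Within each sex, 112 autosomal genes were called between hAPOE4 and hAPOE3 females (0.552% of those tested, 26 higher and 86 lower in hAPOE4) and 118 between hAPOE4 and hAPOE3 males (0.582%, 83 higher and 35 lower). Leaving out 1 mouse moved the female count to 199 (without S144) or to 63 to 73 (without S147, S148, S164, S165 or S166). In 41 genes both comparisons were called, 39 of them in the same direction, and these 39 had a median absolute difference of 0.13 log2 units between the sexes and 0 interaction calls, with 1 at an unadjusted p under 0.05 by edgeR. Oscar, a receptor gene of osteoclasts and myeloid cells, rose by 3.33 in females and 3.64 in males (difference -0.32, 95% interval -1.01 to 0.38). Serpina3n, a protease inhibitor of reactive astrocytes, rose by 2.11 and 1.92 (difference 0.19, interval -0.24 to 0.62). Eps8l1, of an actin regulator family, rose by 3.29 and 2.81 (difference 0.48, interval -0.22 to 1.181). The T cell gene Cd3d changed by -1.92 and -2.22, Gm15494 by -2.65 and -2.09 and Cacng6, a calcium channel subunit gene, by -1.64 and -1.47, females first. These 6 genes were chosen for large changes called in both sexes, which favours a small difference. Among the 39 the absolute difference reached 2.15 log2 units.

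Of the 67 genes called in females only that did not follow Omt2a, 6 had an interaction call, 33 had an unadjusted interaction p under 0.05 and 57 had a change of the same sign in males. Of the 77 genes called in males only, 40 followed Omt2a, and of the 37 that did not, 3 had an interaction call, 22 had an unadjusted interaction p under 0.05 and 23 had a change of the same sign in females. Over all genes tested 486 of 20291 had such a p, and the genes called in 1 sex were chosen on values that enter the difference. Without S175 to S178 the males gave 5 called genes and the females 109.

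The gene lists, 45 in all, give the rest of the hippocampus. An interaction call fell in 2 of them, the oocyte list (3 of 18 tested genes, all lower in females, median difference -1.45, and 0.50 without S175 to S178) and the circadian clock (1 of 17, Bhlhe41, median 0.01, and -0.07 without S175 to S178), and 0 calls fell in the other 43. The direction of no list median changed with RLE scaling or without mitochondrial genes, and 12 of the 45 changed sign without S175 to S178. In bulk tissue, fewer cells of a type and less RNA per cell cannot be told apart.

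Lists of cell types from beside the hippocampus and of blood had the widest medians among the lists with 0 calls. Choroid plexus genes, of the epithelium that makes cerebrospinal fluid, had a median difference of 0.45 with 12 of 15 genes above 0 and a median of 2.26 without S175 to S178. Their summed level ran from 293 to 5986 CPM in F.APOE3, 294 to 9821 in F.APOE4, 299 to 4051 in M.APOE3 and 332 to 4472 in M.APOE4, so that every group held mice with little and with much of it, and with their score as a covariate 33 genes were called in place of 34. Striatal genes had a median of 0.57 (12 of 12 above 0) and 1.17 without S175 to S178, and in M.APOE3 their summed level was 974 CPM in S158 and 175.3 to 187.6 CPM in the other 4 mice. The border macrophage genes had a median of 0.46 (10 of 10 above 0) and 0.98 without S175 to S178. Thalamic genes had a median of -0.41 (0 of 11 above 0), which was 1.27 without S175 to S178. Their summed level was 878 CPM in S158, 809 CPM in S176 and 756 CPM in S178, and 159 to 231 CPM in the other 17 mice. Blood genes had a median of -0.65 over 4 genes and 0.30 without S175 to S178, and their summed level was 303 CPM in S144 and 197 CPM in S157 against 9.38 to 82.1 CPM in the other 18. The part of these single mice in the medians was not tested. Genes with the lowest p in these lists were Sostdc1 (0.94), Rgs9 (0.85), Cbr2 (1.48), Rora (-0.47) and Hbb-bt (-0.81), and edgeR gave all 5 an adjusted p of 1.00.

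Lists of hippocampal neurons and glia lay near the median of all genes. Neurons had a median difference of -0.03, hippocampal subfields 0.07, astrocytes -0.06, oligodendrocytes 0.12, microglia 0.09 and endothelium 0.13. Without S175 to S178 the median was -0.18 for hippocampal subfields and 0.07 for astrocytes. Disease-associated microglia genes had a median of 0.24 with 16 of 20 above 0, MHC class II genes, which present antigen, one of 0.26 (10 of 12), and complement genes one of 0.20 (13 of 18). Interferon response genes had a median of -0.28 with 4 of 33 above 0, a change of 0.21 in females and 0.50 in males, and the M.APOE4 mouse S176 had the highest score of all 20 mice (0.87 log2 units above the mean). Without S175 to S178 that median was -0.09.

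Lists of energy metabolism had medians slightly above that of all genes, with 0 calls. Glycolysis genes had a median difference of 0.11 (18 of 19 above 0), TCA cycle genes 0.10 (21 of 22), fatty acid oxidation 0.15 (22 of 25), ketone body use 0.18 (10 of 11), nuclear complex I 0.19 (34 of 34), complexes III to V 0.16 (32 of 33) and cytosolic ribosomal proteins 0.22 (58 of 59), and members of a list move together in a mouse. For nuclear complex I the list score was -0.32, -0.25, -0.33, 0.27 and 0.35 log2 units in F.APOE3 (S144 to S148) and -0.23, -0.15, 0.44, 0.39 and 0.39 in M.APOE3 (S154 to S158), against -0.17 to 0.05 in the 10 hAPOE4 mice. The score was above 0.2 in 2 of 5 hAPOE3 females, 3 of 5 hAPOE3 males and 0 hAPOE4 mice, and the counts were the same for ribosomal protein genes. Cholesterol synthesis genes (-0.02), cholesterol export and apolipoprotein genes (-0.02, and 0.01 without S175 to S178), fatty acid synthesis and lipid droplet genes (0.04) and amyloid precursor and secretase genes (0.04) had medians close to that of all genes.

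**Figure D5:**
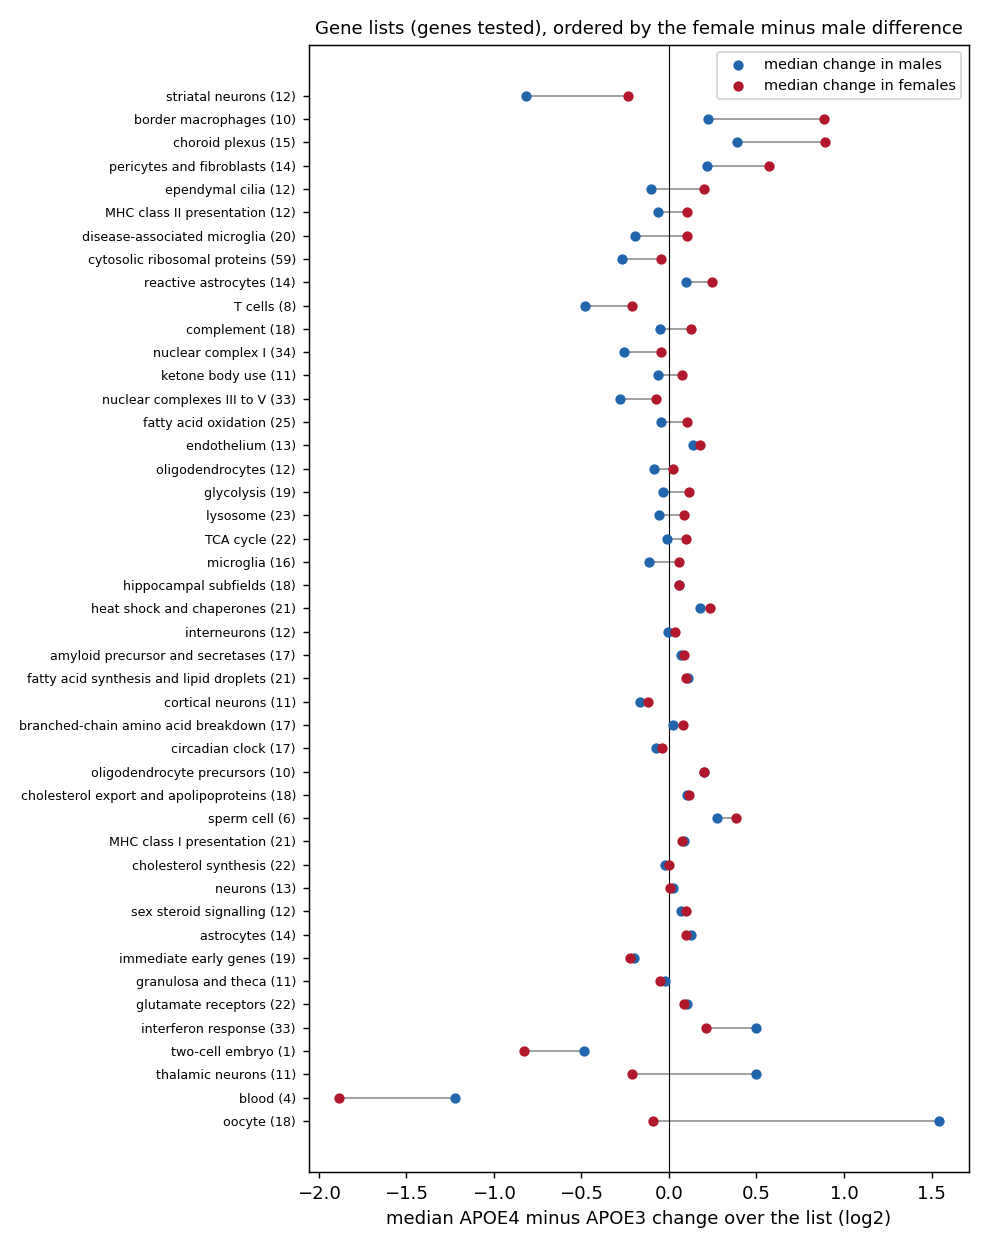
Median log2 change from APOE3 to APOE4 over each of 45 gene lists in females (red) and males (blue), with the number of autosomal genes tested in brackets, ordered by the median difference. The oocyte list is lowest, with a median of 1.54 in males and -0.09 in females.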

How the data were processed

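Hippocampal RNA of 20 mice was sequenced by the authors as paired-end polyA libraries, with processing by Salmon 0.91 and DESeq2 per the labels. The first deposited table holds estimated counts per gene, which the authors summed from Salmon with tximport, as whole numbers without normalization. The second deposited table holds a signal, counts normalized by the authors with DESeq2, and served only for 1 alternative. Each column carried the name of 1 mouse, and the number of unmatched columns was 0. In the 190 pairs of libraries the chi-square per degree of freedom was at least 9.49, so no library repeated another. Nothing in the labels gives litters or batches, so the p-values measure the spread between these mice.

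Counts were tested with edgeR 4.0.16 (R 4.3.3): TMM, 1 mean per group, glmQLFit and glmQLFTest, Benjamini-Hochberg over all 21953 genes tested, threshold 0.05. Standard errors come from the log2 difference and its F statistic. CPM are TMM-normalized, and log2 CPM carry a prior count of 2. Gene positions come from GENCODE on GRCm38 (31064 of 33119 symbols). The script was tested on simulated counts. The named genes are Omt2a and the 10 called followers with the highest mean CPM in M.APOE4, the other called genes and the 8 lowest p in each direction, the lowest p of each list (1 is not reported here), the 6 largest changes shared by both sexes and the 4 lowest p among genes called in 1 sex only. All further genes (Omt2b, Btg4, Dppa3, Mos, the Zp genes, Xist, Sall4, Cks2, Nlrp4f and those at the edges of the follower rule) are examples picked once their values were known. The members, the gene lists and the tests were chosen with earlier results of these data known. Alternatives covered the test (DESeq2 1.42.0, limma 3.58.1), the scaling, the filter, the covariates, the rule for followers and each mouse left out, and 2 (without S175 to S178, and a filter of 10 counts in 4 mice) were added after the data were seen. Figures were drawn with matplotlib.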

Additional observations from a re-analysis of the deposited data

Results flagged for a closer look

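The change from hAPOE3 to hAPOE4 differed between females and males by the interaction test in 34 genes, and each difference (log2, change in females minus change in males) was negative. Among the genes that follow Omt2a it was -6.09 for A430010J10Rik, -3.30 for Gm11225, -3.62 for Gm28784, -4.04 for Gm29325, -5.02 for Vmn1r13, -4.77 for E330034G19Rik, -4.89 for Gm43972, -5.67 for C86187, -2.73 for Gm12792, -3.56 for Cks2, -3.11 for Bhlhe41, -4.41 for Gm19087, -4.31 for Gm10717, -4.05 for Gm26870, -2.37 for Zbed3, -3.36 for Slc9b1, -3.53 for Gm2033, -7.80 for Gm10800, -3.22 for Sall4, -3.64 for Accsl, -3.05 for E330021D16Rik, -3.51 for Gdf9 and -5.54 for Nlrp4f. Among the other genes it was -2.90 for Gm26822, -2.94 for Olfr729, -3.36 for Gm4034, -5.42 for Gm25679, -1.99 for Cenpf, -2.88 for Gm43960, -2.31 for Esco2, -6.19 for Gm45733, -3.39 for Rn7sk, -3.62 for Ccdc50-ps and -2.51 for Gm13568.

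Below the count filter and therefore outside the tests, 172 autosomal genes followed Omt2a. In 129 of them each of S175 to S178 was above the 16 other mice, 130 were at 0 counts in S174, and 83 reached 10 counts in S175 to S178 and in no other mouse. The choice of these genes by r over M.APOE4 favours such patterns. Together the 172 genes took 0.0428%, 0.0250%, 0.0302% and 0.0233% of the counts in S175 to S178 and 0.000165% in S174.

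A single mouse stood apart from the other 4 of its group, by its gap to the nearest mouse over the range of the group, in 13 of 160 groups of 5 examined. A rate of 1 in 20 gives 8, but most groups were levels of called genes, chosen on these values and not independent. The 8 is therefore nominal, and no excess can be read from it. In F.APOE3 the cases were A430010J10Rik at 16.2 CPM in S147, Ccdc50-ps at 1.85 CPM in S146, Gm19087 at 6.6 CPM, Gm43960 at 36.0 CPM in S148, Rn7sk at 12.7 CPM in S146 and Slc9b1 at 1.05 CPM. In F.APOE4 they were Bhlhe41 at 49.1 CPM in S166, Gm45733 at 0.0430 CPM in S166 (the other 4 at 0) and the summed oocyte list at 11.3 CPM. In M.APOE3 they were Gm19087 at 4.37 CPM and Gm43972 at 20.2 CPM in S156. In M.APOE4 they were Gm25679 at 4.30 CPM in S176 and the summed choroid plexus list at 4472 CPM in S176.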

How the results depend on the processing

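The 34 called genes became 32 with RLE scaling, 33 with filterByExpr, 34 without a filter, 35 without mitochondrial genes, 32 with adjustment over autosomal genes and 33 with the choroid plexus score as a covariate, and the 11 that do not follow Omt2a became 9 to 12 under these. The DESeq2 Wald test gave 55 genes (1 higher in females) and 22 that do not follow Omt2a, and limma on the deposited normalized values gave 12 and 5. With the oocyte list score as a covariate 1 gene was called, and it was not a follower. With each mouse left out the counts ran from 23 to 84 and from 6 to 33. The highest were without S174, and the second was 6 or 7 without S144, S154, S157, S158, S164, S165, S167, S168, S175, S176 or S177. Without S175 to S178, a setting chosen after the data were seen, 0 genes were called in both, the count of males fell from 118 to 5, and the lone S174 was assumed to vary like the other groups. With 10 counts in at least 4 mice, also chosen afterwards, 34 genes were called, 1 of 89 newly tested followers among them, and Omt2a had an adjusted p of 1.00 by edgeR. Setting apart at a looser r of 0.8 and range of 1 left 5 called genes, at a stricter 0.95 and 3 it left 16, and setting apart only the fixed oocyte list left 31. The number of autosomal followers was 291, and 977, 137 or 557 at the looser rule, the stricter rule or a prior count of 0.5. Within sexes DESeq2 called 275 genes in females and 206 in males, and leaving out a mouse gave 63 to 199 in females (199 without S144, 63 to 73 without S147, S148, S164, S165 or S166), while in males no mouse moved the count by over 1.5 times.

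Of 21 called genes named by the rule, 14 stayed called with each mouse left out, and Gdf9 did so in 1 of 20 cases, Gm13568 and Ccdc50-ps in 3, Gm45733 in 7, Rn7sk in 8, Esco2 in 11 and Gm10800 in 12. The sign turned with the oocyte covariate for Bhlhe41 (0.0201), Gdf9 (0.373), Usp17la (0.643), Rora (0.0149), Rorb (0.0776), Hbb-bt (0.19), Grik1 (0.0395) and Serpina3n (-0.0372), and without S175 to S178 for Bhlhe41 (0.18), Gdf9 (0.55), Usp17la (0.60), Rora (0.18), Rorb (0.19), Hbb-bt (0.10), Grik1 (0.0894) and Serpina3n (-0.11). It turned for Eps8l1 with limma (-0.0247). With each mouse left out Hbb-bt ran from -1.56 to 0.85 (positive without S144) and Rgs9 from -0.30 to 1.13 (negative without S158). The cause was not tested. The groups held different mice and no label pairs mice across groups, so no paired analysis was made. With 5 mice a group, low genes had wide intervals.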
